A study of Mus musculus with 12 samples.

Results

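The livers of mice labelled AHR or ARNT knockout were compared with those of their floxed controls in 1 analysis over both lines, with all 12 of the series' 12 libraries: 6 knockout (KO) libraries, 3 labelled AHR KO and 3 labelled ARNT KO, against 6 control (Flox) libraries, 3 AHR Flox and 3 ARNT Flox. The line (AHR or ARNT) entered as an additive term, so that 1 change is estimated for the 2 lines together. A gene that changed in only 1 line can still pass this test. All libraries are liver poly-A RNA of C57BL/6 females aged 6 months that ate a high-fat diet through 13 weeks, with n = 3 per genotype. A Flox mouse carries the Ahr or Arnt gene flanked by recombination sites, and a KO mouse is labelled as the knockout of that gene. Which recombinase was used, what promoter drives it and which exons were removed is not given in the sources used here. For a change that both lines share, the deletions, the recombinase and sequence inherited with it cannot be told apart. The labels name no litters or cohorts, and a p-value measures the spread between these libraries.

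AHR, the aryl hydrocarbon receptor, is a ligand-activated transcription factor of the bHLH-PAS family, best known in liver for switching on genes of foreign compound metabolism such as Cyp1a1 and Cyp1a2. ARNT is its DNA-binding partner, and AHR bound to ligand needs ARNT to act at its core motif GCGTG. ARNT also pairs with the hypoxia-inducible factors (HIF), which bind the core motif ACGTG, so ARNT serves both pathways while AHR serves only its own.

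The libraries held between 23585909 and 33255004 counts. Levels are in CPM, each gene's count relative to its TMM-scaled library size, and a count of 0 allows up to 3 counts or 0.0861 to 0.126 CPM (counting error only). ARNT KO replicate 3 stood apart from all others on the first principal component, which held 43% of the variance, at 65.3 against -30.9 to 30.3. Results are therefore given with that library and without it, as 12 and as 11 libraries. The 12 hepatocyte markers summed to at least 33284 CPM in every library. The erythrocyte genes Hba-a1, Hba-a2, Hbb-b1 and Hbb-b2 and the pancreas and gut genes Prss1, Ins1 and Gcg were at 0 in all 12. Other members of these 2 lists were not at 0. The erythrocyte list summed to 85.8 to 161 CPM in Flox and 70.2 to 170 CPM in KO. The pancreas and gut list summed to 107 to 219 CPM in Flox and 105 to 174 CPM in KO.

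Neither targeted gene passed the test over both lines, in which Arnt is deleted in 1 line and Ahr in the other. Arnt (chromosome 3, 95434367 to 95497240, mm10) was at 25.2, 23.9 and 19.0 CPM in ARNT KO against 47.8, 52.5 and 50.3 CPM in ARNT Flox, without overlap, but at 65.5, 68.0 and 55.2 CPM in AHR KO against 51.3, 64.0 and 54.3 CPM in AHR Flox. The log2 change of Arnt over both lines was -0.49 ± 0.21 (standard error, SE; edgeR quasi-likelihood test, Benjamini-Hochberg adjusted p = 0.592), and its change differed between the lines by -1.30 on the log2 scale (adjusted p = 0.0301). Ahr (chromosome 12, 35497979 to 35534989) was at 84.4, 94.8 and 80.3 CPM in the libraries labelled AHR KO and at 53.9, 78.8 and 72.4 CPM in AHR Flox. That label is not checked by counts per gene, since a deletion can leave the rest of the transcript. In the ARNT line Ahr overlapped between the groups, and over both lines its log2 change was 0.12 ± 0.13 (adjusted p = 0.861).

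Few genes were called over both lines, and of these Esr1, Pebp1 and Cox18 were higher in KO in each line. Of 13968 genes tested, 5 were called at an adjusted p under 0.05 (0.0358%), 4 higher (0.0286%) and 1 lower (0.00716%) in KO. At an unadjusted p under 0.05 there were 1122 genes (8.03%), of which the lower ones made up 3.80% of all genes. Esr1 encodes estrogen receptor alpha, a ligand-activated nuclear receptor of hepatocytes. Pebp1 encodes a phosphatidylethanolamine-binding protein that damps the MEK-ERK kinase cascade, and Cox18 encodes a factor that inserts a subunit of cytochrome c oxidase into the mitochondrial inner membrane. The remaining calls, Sult2a6 and A330049N07Rik, rest on the AHR line alone, as described after these 3 genes.

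The sequences just before the annotated starts of Esr1 and Pebp1 are shown because these are the 2 genes that each line called by itself in the same direction. They are the 250 bases before each start in RefSeq's GRCm38.p6 annotation (the mm10 build), 5′ to 3′ on the gene's strand, at chr10:4611739-4611988 and chr10:4709908-4710157 for Esr1 (plus strand) and chr5:117287565-117287814 for Pebp1 (minus strand). Capitals mark GCGTG or its reverse complement CACGC.

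Esr1, first start: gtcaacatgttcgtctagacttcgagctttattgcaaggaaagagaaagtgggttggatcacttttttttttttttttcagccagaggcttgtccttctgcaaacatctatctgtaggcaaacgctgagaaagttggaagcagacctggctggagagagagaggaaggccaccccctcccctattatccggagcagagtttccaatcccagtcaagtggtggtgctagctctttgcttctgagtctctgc
Esr1, second start: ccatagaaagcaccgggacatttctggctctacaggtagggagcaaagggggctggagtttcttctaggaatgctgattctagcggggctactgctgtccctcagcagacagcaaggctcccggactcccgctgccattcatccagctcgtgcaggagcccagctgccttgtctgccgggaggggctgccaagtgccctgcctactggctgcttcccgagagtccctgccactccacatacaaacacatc
Pebp1: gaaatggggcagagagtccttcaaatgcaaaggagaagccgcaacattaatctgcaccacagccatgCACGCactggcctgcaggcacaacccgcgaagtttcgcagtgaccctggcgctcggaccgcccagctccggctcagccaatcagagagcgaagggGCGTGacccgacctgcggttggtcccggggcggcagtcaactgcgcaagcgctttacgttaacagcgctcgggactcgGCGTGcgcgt

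The Pebp1 window held 3 matches of the AHR-ARNT core, and neither Esr1 window held a GCGTG or an ACGTG on either strand. The core GCGTG occurred in the window of 47.7% of the 11065 tested genes with a promoter entry, and ACGTG in 24.2%. A match is a description of these letters and not a binding site. Counts are per gene symbol and do not show which start or which part of Esr1 the reads came from. They also do not show whether the reads came from the Esr1 locus itself or from other sequence that matches it, which was not tested.

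Esr1 (chromosome 10, 4611989 to 5005633) was at 471, 473 and 468 CPM in AHR KO against 34.9, 37.0 and 30.9 CPM in AHR Flox. The ARNT KO libraries held 216, 199 and 307 CPM and their controls 42.4, 36.0 and 38.6 CPM. Every KO library lay above every Flox library, and the AHR KO libraries lay above the ARNT KO libraries. Over both lines Esr1 was 9.20-fold higher (log2 change 3.20 ± 0.21 SE, adjusted p = 1.30e-05). The difference in its change between the lines was -1.15 ± 0.21 on the log2 scale in 12 libraries (ARNT line minus AHR line, adjusted p = 0.127) and -1.36 in 11 (adjusted p = 0.00106).

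Pebp1 (chromosome 5, 117282651 to 117287564) reached 339, 239 and 300 CPM in AHR KO against 112, 116 and 127 CPM in AHR Flox. In the ARNT line it reached 208, 208 and 252 CPM in KO against 89.6, 93.8 and 95.8 CPM in Flox. The groups did not overlap in either line, and the 2 lines gave nearly the same change. Over both lines Pebp1 was 2.43-fold higher (log2 change 1.28 ± 0.09 SE, adjusted p = 1.51e-05), and the difference between the lines was -0.05 ± 0.18 (adjusted p = 0.969). Both Esr1 and Pebp1 passed the stricter test that asks each line for the change by itself (the larger of the p-values of the 2 lines, adjusted over all genes), at adjusted p = 2.67e-05 and 0.00460. They were the 2 genes that passed it in 12 libraries (0.0143%; 0.644% at an unadjusted p under 0.05), and with 11 libraries Dio3os passed as well (3 genes, 0.0213%; 1.61% unadjusted). Leaving out any 1 of the 3 ARNT Flox libraries left 1 gene.

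Cox18 (chromosome 5, 90214724 to 90224595) was at 14.0, 12.7 and 13.4 CPM in AHR KO against 7.39, 8.48 and 7.91 CPM in AHR Flox, and the ARNT line had 11.4, 9.25 and 14.2 CPM in KO against 7.56, 6.67 and 6.45 CPM in Flox. The groups did not overlap in either line. Cox18 was 1.68-fold higher (log2 change 0.75 ± 0.10 SE, adjusted p = 0.0123), with 0.75 in each line. Neither line called it alone (adjusted p = 0.0783 in the AHR line and 0.228 in the ARNT line), and its joint call was lost without ARNT Flox replicate 2 (adjusted p = 0.0607), ARNT Flox replicate 3 (0.0588) or AHR Flox replicate 1 (0.0579).

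**Figure D1:**
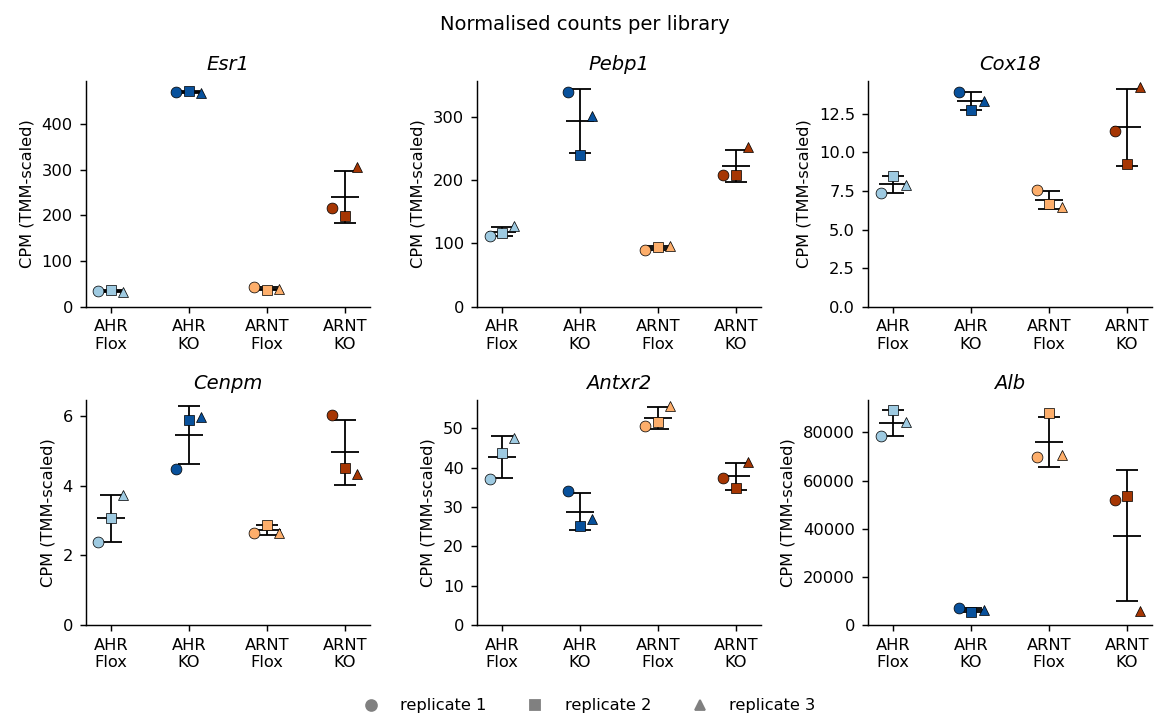
Normalised counts (CPM, linear axes from 0) of 6 genes in the 12 libraries, with points for replicates and black bars for the group mean and SD (n = 3). Esr1, Pebp1, Cox18 and Cenpm are higher and Antxr2 is lower in every KO library of each line than in its Flox libraries, and Alb is at 5491 to 7088 CPM in AHR KO and in ARNT KO replicate 3 at 5740 CPM.

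Sult2a6 and A330049N07Rik were called over both lines without a measurable change in the ARNT line. Sult2a6, a sulfotransferase gene of the Sult2a cluster (chromosome 7, 14222403 to 14254870), had 511, 608 and 280 counts in AHR KO against 0, 1 and 0 in AHR Flox. In the ARNT line it had 3, 0 and 0 counts in KO against 0 in each Flox library. The AHR KO libraries together were 1238-fold higher than AHR Flox per scaled library (95% interval 222 to 48931, counting error only), while the ARNT line was at the floor in both groups. The copies of the cluster share sequence, so the assignment of reads to Sult2a6 is uncertain. A330049N07Rik (chromosome 10, 72973303 to 73086705), an unnamed transcript, had 2, 0 and 0 counts in AHR KO against 146, 203 and 77 in AHR Flox, a 241-fold lower level (interval 66.2 to 1994). It had 1 count in all 6 ARNT line libraries, so ARNT Flox was as low as AHR KO. Adjusted p in the joint test was 1.30e-05 for Sult2a6 and 4.61e-05 for A330049N07Rik, and both lost the call when the change was averaged over the lines with a mean per group (0.232 and 0.432).

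Over all genes the changes of the 2 lines did not run in parallel. The 2 within-line comparisons share no library. Of the 13968 genes, 49.7% had the same sign in both lines, and the log2 changes correlated across genes at Pearson r = 0.05 and Spearman rho = -0.00 (genes are not independent replicates, so no p is given). Among the 1664 genes with an unadjusted p under 0.05 in the AHR line 46.8% had the same sign, and among the 822 such genes in the ARNT line 51.5%. Where both lines had such a p (155 genes) the share was 58.1% in 12 libraries, and it was 49.7% of 457 genes in 11. The change itself differed between the lines for 6 genes in 12 libraries (0.0430%) and for 194 in 11 (1.38%).

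**Figure D2:**
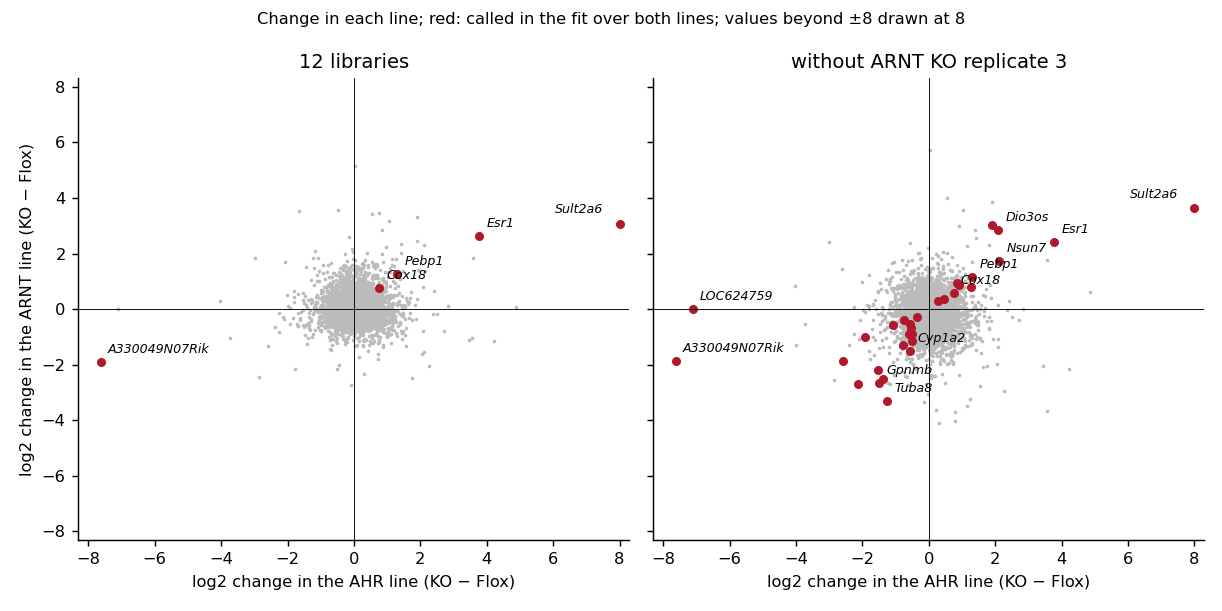
Log2 change (KO minus Flox) in the AHR line (x axis) and in the ARNT line (y axis) for each tested gene, with 12 libraries on the left and 11 on the right. Red points are genes called over both lines, 5 on the left and 31 on the right. Pebp1 and Cox18 lie near the diagonal, and Esr1 lies below it, with the larger change in the AHR line. Sult2a6 and A330049N07Rik lie far out along the AHR axis, and the grey cloud has no slope (r = 0.05 on the left).

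A separate count took genes whose 3 KO libraries all lay on 1 side of the 3 Flox libraries in each line. There were 176 such genes with the same direction in both lines (1.26%), 96 higher (0.687%) and 80 lower (0.573%), beside 194 with opposite directions (1.39%). With 11 libraries, where the ARNT line holds 2 KO libraries, the counts were 564 (4.01%; 2.29% higher and 1.72% lower) and 597 (4.24%). So the same direction was no more frequent than the opposite one in either set. In promoters, GCGTG occurred in 50% of the 142 genes of the 176 with an entry and ACGTG in 27.5%, beside the 47.7% and 24.2% of all tested genes.

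These genes were unevenly placed along the genome, with chromosome 5 holding more of them than the rest. Chromosome 5 carries Alb, the gene of albumin, the main protein that hepatocytes secrete, and also Cox18 and Pebp1. Of its 890 tested genes 28 had non-overlapping groups in the same direction in both lines (3.15%), 14 higher and 14 lower, against 148 of 13078 on the other chromosomes (1.13%). Within 30 Mb of the start of Alb the count was 20 of 308 (6.49%), and farther away on the same chromosome 8 of 582 (1.37%); this window was chosen after the values were seen. Within 10 Mb the shares were 5.33% of 75 genes around Alb, 2.00% of 50 around Ahr and 0.778% of 257 around Arnt. In 11 libraries they were 7.79% of 77 around Alb, 3.92% of 51 around Ahr and 4.23% of 260 around Arnt, beside 4.01% of all genes. Chromosome 5 held 15.9% of the non-overlapping genes in 12 libraries and 9.75% in 11, where it holds 6.35% of tested genes.

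Alb itself (chromosome 5, 90460870 to 90476602) was at 78433, 89274 and 84389 CPM in AHR Flox and at 7088, 5491 and 6352 CPM in AHR KO. It was at 69704, 87894 and 70516 CPM in ARNT Flox and at 51926, 53685 and 5740 CPM in ARNT KO. All KO libraries were below all Flox libraries, and ARNT KO replicate 3 was at the level of AHR KO and not of its group. In edgeR the log2 change over both lines was -2.38 ± 0.63 (adjusted p = 0.366) and did not pass in 11 libraries either (-2.24, adjusted p = 0.131). In 11 libraries it differed between the lines by 3.22 (adjusted p = 0.000453). With the DESeq2 Wald test in 12 libraries Alb did pass (log2 change -2.38, adjusted p = 0.00465), so its call depends on the test used. The other 3 members of the albumin family, which lie beside Alb, were not called by edgeR in either set. Gc, the vitamin D binding protein gene, was at 6438 to 7079 CPM in Flox and 7091 to 7994 CPM in KO (log2 change 0.14, edgeR adjusted p = 0.768). Gc passed with the DESeq2 Wald test in 12 libraries (adjusted p = 0.0482). Afm, the afamin gene, had a log2 change of 0.08 (adjusted p = 0.930). The fetal gene Afp was at 0.941 to 1.11 CPM in AHR KO against 4.78 to 5.26 CPM in AHR Flox, and overlapped between the ARNT groups (2.33 to 4.66 against 2.56 to 4.64 CPM; log2 change over both lines -1.12, adjusted p = 0.466).

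**Figure D3:**
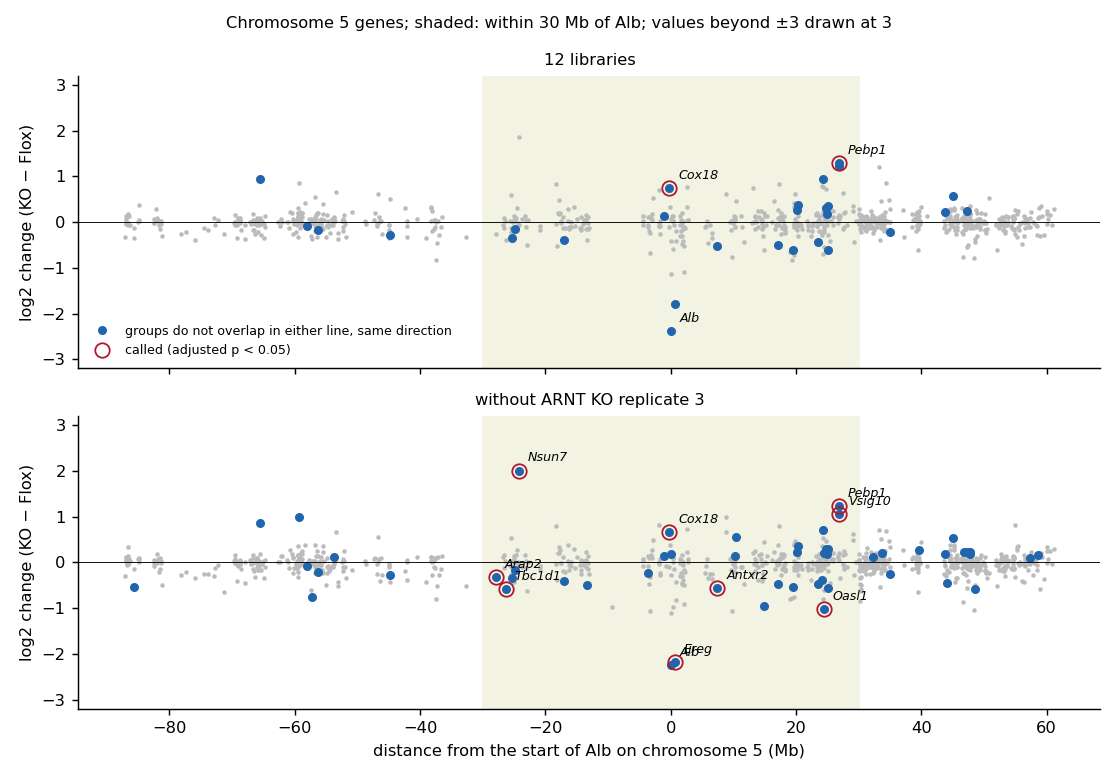
Log2 change over both lines (y axis) of each tested chromosome 5 gene by its distance in Mb from the start of Alb (x axis), with 12 libraries above and 11 below. Blue points have groups that do not overlap in either line and change in the same direction, red rings are called genes, and the shaded band is within 30 Mb of Alb, where 20 of the 28 blue points of the upper panel lie. In the lower panel all 9 called genes lie inside the band, which was chosen after the values were seen. In 12 libraries the band held 308 of the 890 tested genes of chromosome 5.

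Without ARNT KO replicate 3 the joint test called 31 of 14073 genes (0.220%), 12 higher (0.0853%) and 19 lower (0.135%). An unadjusted p under 0.05 was reached by 2048 genes (14.6%; 7.21% higher, 7.34% lower). All 5 earlier calls were among them. Chromosome 5 held 9 of the 31, 4 higher and 5 lower. These were 1.01% of its 893 tested genes, which made up 6.35% of all genes tested. The calls added, 8 higher and 18 lower, are genes that passed without ARNT KO replicate 3 and did not pass with it. That library thus helped to choose them, and its position among them is a description and not an independent check. ARNT KO replicate 3 lay on the KO side of all 3 ARNT Flox libraries for 2 of the 8 added higher genes and 4 of the 18 added lower genes. It lay on the opposite side of them for 3 and 10.

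Among the rising genes added in 11 libraries, Cenpm and Vsig10 were also above ARNT Flox in the left-out library. Cenpm, a centromere protein gene (chromosome 15, 82233762 to 82244773), was at 2.38 to 3.73 CPM in AHR Flox and 4.49 to 5.96 CPM in AHR KO, and at 2.64 to 2.88 CPM in ARNT Flox and 4.34 to 6.02 CPM in ARNT KO. Its log2 change was 0.85 ± 0.13 in 12 libraries (adjusted p = 0.0736) and 0.89 ± 0.14 in 11 (adjusted p = 0.0255). Vsig10, an immunoglobulin domain gene near Pebp1 (chromosome 5, 117318476 to 117355007), was at 1.74 to 3.10 CPM in Flox and 3.69 to 8.73 CPM in KO (log2 change 1.05, adjusted p = 0.0288 in 11 libraries). Dio3os, the antisense RNA of the deiodinase 3 locus, was at 4.73, 5.37 and 3.06 CPM in AHR Flox, 21.3, 16.8 and 18.7 CPM in AHR KO and 1.13, 0.438 and 1.21 CPM in ARNT Flox. In ARNT KO it was at 7.98 and 5.08 CPM in replicates 1 and 2 and at 0.747 CPM in replicate 3, within ARNT Flox (log2 change 2.36, adjusted p = 0.000733 in 11 libraries and 0.189 in 12). Counting is not known to have used strand, so reads of Dio3os and of its partner cannot be told apart. Nsun7, an RNA methyltransferase family gene of chromosome 5, was at 0.0626 to 0.511 CPM in Flox and 0.434 to 3.22 CPM in the 5 KO libraries (log2 change 2.01, adjusted p = 0.0296).

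Cyp2c37 and Sult2a7 were among the added rising genes, and in ARNT KO replicate 3 both were below all ARNT Flox libraries. Cyp2c37, a cytochrome P450 of the Cyp2c arachidonic acid epoxygenases, was at 1710, 1230 and 1189 CPM in AHR KO against 691, 959 and 566 CPM in AHR Flox, and the ARNT line had 742, 557 and 142 CPM in KO against 360, 364 and 359 CPM in Flox. Its log2 change was 0.87 ± 0.14 in 11 libraries (adjusted p = 0.0297) and 0.66 in 12 (adjusted p = 0.624). Sult2a7 was at 3.28 to 7.87 CPM in AHR Flox and 11.8 to 39.9 CPM in AHR KO, and at 0.417 to 0.470 CPM in ARNT Flox and 4.22, 3.05 and 0.144 CPM in ARNT KO (log2 change 2.23, adjusted p = 0.0372 in 11 libraries). Assignment within the Cyp2c and Sult2a clusters is uncertain, because their copies share sequence. S100a13, a calcium-binding protein gene, and Fkbp2, a prolyl isomerase gene of the endoplasmic reticulum, rose by smaller amounts (log2 change 0.43 and 0.30, adjusted p = 0.0169 and 0.0364 in 11 libraries). In ARNT KO replicate 3 S100a13 was also below all ARNT Flox libraries, and Fkbp2 was within them. S100a13 lies within 10 Mb of Arnt on chromosome 3, where it was the 1 gene called of 260 tested in 11 libraries (0.385%).

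Antxr2, Dpy19l3, Ereg and Ank3 were the genes that fell in 11 libraries and were below ARNT Flox in the left-out library too. Antxr2, a collagen-binding anthrax toxin receptor gene on chromosome 5 (97884688 to 98031017), was at 34.2, 25.3 and 26.9 CPM in AHR KO against 37.0, 43.7 and 47.5 CPM in AHR Flox, and the ARNT line had 37.3, 34.7 and 41.6 CPM in KO against 50.6, 51.7 and 55.8 CPM in Flox. The groups did not overlap in either line (log2 change -0.56 ± 0.09, adjusted p = 0.0255 in 11 libraries and 0.0775 in 12). Dpy19l3, a protein C-mannosyltransferase gene, fell by 0.84 on the log2 scale (adjusted p = 0.0255 in 11 libraries) and was at 3.10 to 3.90 CPM in AHR KO against 5.95 to 8.32 CPM in AHR Flox. Ereg, the gene of the growth factor epiregulin, lies close to Alb on chromosome 5 and was at 0.443 to 1.01 CPM in Flox and 0.0651 to 0.603 CPM in KO (log2 change -2.18, adjusted p = 0.0255 in 11 libraries). Ank3, an ankyrin gene, fell by 0.60 on the log2 scale (adjusted p = 0.0372).

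For 10 of the 19 falling genes ARNT KO replicate 3 lay above all ARNT Flox libraries. Tuba8, a tubulin gene, was at 0.748, 0.388 and 0.376 CPM in AHR KO against 1.06, 1.13 and 1.45 CPM in AHR Flox, and the ARNT line had 0.745, 0.794 and 9.96 CPM in KO against 7.62, 7.86 and 7.75 CPM in Flox. Its log2 change was -2.36 in 11 libraries (adjusted p = 0.0255) and -1.10 in 12 (adjusted p = 0.655). ARNT KO replicates 1 and 2 thus lay below AHR Flox, near the highest AHR KO library, and replicate 3 lay above ARNT Flox. For Gpnmb, a glycoprotein gene of macrophages, ARNT KO replicates 1 and 2 lay within AHR Flox and replicate 3 above ARNT Flox: 0.376 to 1.12 CPM in AHR Flox, 0.162 to 0.358 CPM in AHR KO, 3.60 to 4.38 CPM in ARNT Flox and 0.466, 0.763 and 6.29 CPM in ARNT KO (log2 change -2.16, adjusted p = 0.0255 in 11 libraries). Ugt1a9, a glucuronosyltransferase gene whose exons are shared with other Ugt1a genes, was at 17.0 to 25.4, 4.92 to 14.5, 98.5 to 119 CPM in AHR Flox, AHR KO and ARNT Flox, and at 21.0, 17.0 and 119 CPM in ARNT KO (log2 change -1.90, adjusted p = 0.0279 in 11 libraries). Snhg11, a long noncoding RNA, and Oasl1, an interferon-induced gene on chromosome 5, fell in 11 libraries by 1.87 and 1.01 on the log2 scale (adjusted p = 0.0366 and 0.0231), with 25.2 and 37.9 CPM in ARNT KO replicate 3 against up to 18.3 and 25.7 CPM in ARNT Flox.

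Srxn1, the sulfiredoxin gene and a target of NRF2, changed direction with that library. It was at 33.9, 36.3 and 37.0 CPM in AHR KO against 44.6, 50 and 57.8 CPM in AHR Flox, and the ARNT line had 41.0, 52.8 and 447 CPM in KO against 104, 103 and 104 CPM in Flox. The log2 change was -0.79 ± 0.12 in 11 libraries (adjusted p = 0.0255) and 0.15 ± 0.50 in 12 (adjusted p = 0.965). The part of the level of the ARNT Flox group in these falls was not tested. The other falling genes were Krt79, Synj2, Samd4, Myh10, Tbc1d1, Arap2 and LOC624759, with log2 changes of -0.32 (Arap2) to -6.85 (LOC624759, at 0 in all 6 ARNT line libraries).

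Cyp1a2, the liver-enriched AHR target, was the 1 gene of the AHR target list called over both lines, and only in 11 libraries. It was at 350, 283 and 310 CPM in AHR KO against 431, 530 and 424 CPM in AHR Flox, and the ARNT line had 291, 265 and 780 CPM in KO against 780, 836 and 743 CPM in Flox. The groups did not overlap in the AHR line, and in the ARNT line replicate 3 lay within ARNT Flox. The log2 change was -0.97 ± 0.16 in 11 libraries (adjusted p = 0.0366) and -0.69 ± 0.23 in 12 (adjusted p = 0.469), and in 11 libraries it differed between the lines by -0.94 (adjusted p = 0.0273).

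**Figure D4:**
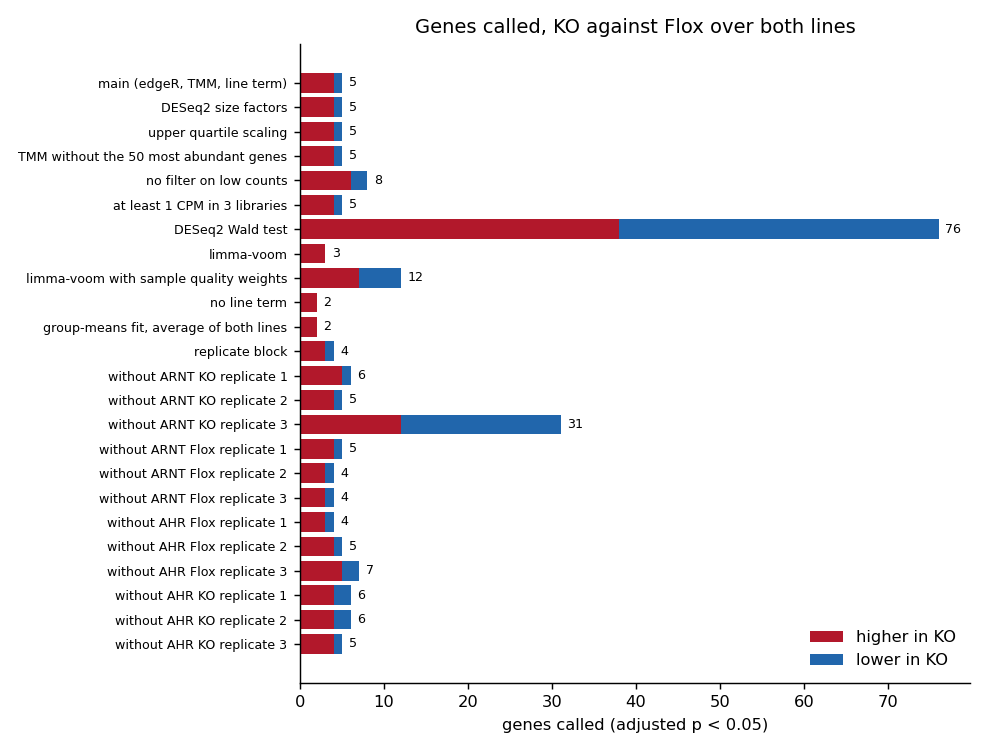
Number of genes called over both lines (x axis, adjusted p under 0.05) under the main analysis and each alternative (rows), split into higher (red) and lower (blue) in KO. The main analysis called 5, DESeq2 called 76 and leaving out ARNT KO replicate 3 gave 31.

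The pathways that AHR and ARNT serve are described by their counts and medians. Calls were so rare over all genes (0.0358% in 12 libraries and 0.220% in 11) that 0 calls in a list of this size says nothing particular about it. Of 18 tested AHR targets 0 were called in 12 libraries and 1, Cyp1a2, in 11. Their median log2 change was 0.04 in 12 libraries and -0.08 in 11, beside 0.01 and 0.00 over all genes tested. Tiparp, an AHR-induced ADP-ribosyltransferase gene that feeds back on AHR, was at 7.58 to 10.8 CPM in Flox and 9.42 to 11.6 CPM in KO (log2 change 0.20, adjusted p = 0.624). Of 28 HIF targets 0 were called in either set, with medians of 0.01 and -0.09. Egln3, a prolyl hydroxylase gene that acts on HIF, was at 20.8 to 36.2 CPM in Flox and 15.2 to 25.9 CPM in KO (log2 change -0.50, adjusted p = 0.411). Ankrd37 was at 0.403, 0.635 and 0.574 CPM in ARNT KO against 2.32, 2.88 and 1.21 CPM in ARNT Flox, while the AHR groups overlapped (log2 change -1.15, adjusted p = 0.438). Of 14 bHLH-PAS genes and partners 0 were called, Hif1a among them (log2 change -0.17, adjusted p = 0.480).

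The relatives of Esr1 and the pathway of Pebp1 are given in the same way. Of 40 nuclear receptor genes 1, Esr1, was called in each set, and the median of the list was -0.00 in 12 libraries and 0.05 in 11. Nr3c2, the mineralocorticoid receptor gene, was at 16.4 to 21.9 CPM in Flox and 10.3 to 18.0 CPM in KO (log2 change -0.42, adjusted p = 0.285). Of 31 genes of the MEK-ERK pathway, on which Pebp1 acts, 1, Pebp1, was called, and the median was 0.03. Dusp6, a phosphatase gene that the pathway induces, was at 60.0 to 111 CPM in Flox and 90.2 to 155 CPM in KO (log2 change 0.47, adjusted p = 0.480).

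Genes of protein folding had mostly positive changes in both lines without reaching the threshold. Those of secreted proteins had them mainly in the AHR line in 12 libraries, and in both lines in 11. Over all genes tested in 12 libraries, 54.1% had a positive change and 49.7% the same sign in both lines. Of 29 genes of the unfolded protein response 26 had a positive log2 change, 26 had the same sign in both lines, and 11 had an unadjusted p under 0.05 in the higher direction (beside 4.23% of all genes), but 0 were called. The median was 0.27 in 12 libraries and 0.26 in 11, and it was 0.22 in the AHR line and 0.21 in the ARNT line. Without AHR KO replicate 3 it was 0.14. Pdia3, a disulfide isomerase gene, was at 410, 387 and 495 CPM in AHR KO against 364, 334 and 394 CPM in AHR Flox, and the ARNT line had 417, 297 and 299 CPM in KO against 232, 227 and 228 CPM in Flox (log2 change 0.40, adjusted p = 0.366). The groups were apart in the ARNT line and overlapped in the AHR line, and ARNT Flox was below AHR Flox. Creld2, an endoplasmic reticulum stress gene, was at 86.1 CPM in AHR KO replicate 3 and 15 to 29.1 CPM in the other KO libraries, against 11.3 to 19.9 CPM in Flox. Among 38 genes of secreted hepatocyte proteins 35 were positive (median 0.18), Alb being the lowest, and 20 had the same sign in both lines. Their median was 0.29 in the AHR line and -0.00 in the ARNT line, and in 11 libraries the ARNT line was at 0.17 and 30 genes had the same sign. In 11 libraries 26 of the 38 had an unadjusted p under 0.05 in the higher direction, beside 7.21% of all genes. In 12 libraries 3 had such a p, and 0 were called in either set. Apoa1, the main protein of high-density lipoprotein, was at 6889 to 8800 CPM in Flox and 7820 to 10751 CPM in KO (log2 change 0.24, adjusted p = 0.683).

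Lists of drug metabolism and fatty acid oxidation had mostly positive changes, and other lipid lists had positive shares nearer to the 54.1% of all genes or below it. In 12 libraries 20 of 34 P450 genes and 19 of 34 fatty acid oxidation genes had the same sign in both lines, beside 49.7% of all genes. In 11 libraries these counts were 25 and 21. Of 34 cytochrome P450 genes 28 were positive and 0 were called in 12 libraries, with a median of 0.16 (0.37 in the AHR line and 0.07 in the ARNT line); in 11 libraries the median was 0.27 and Cyp2c37 was called. Cyp2d9, a P450 more abundant in males, was at 3.72 to 5.35 CPM in ARNT Flox and 16.2 to 63.1 CPM in ARNT KO, and overlapped in the AHR line (log2 change 2.05, adjusted p = 0.272). Of 16 sulfotransferase genes 1, Sult2a6, was called in 12 libraries and Sult2a7 as well in 11 (median 0.29 in 12 libraries, 0.17 without ARNT KO replicate 1 and 0.11 without AHR KO replicate 1). Of 34 fatty acid oxidation genes 28 were positive, 0 were called and the median was 0.08 in 12 libraries. That median ran from 0.02 without AHR KO replicate 3 to 0.16 without ARNT KO replicate 3, and genes with an unadjusted p under 0.05 in the higher direction numbered 0 in 12 libraries and 11 in 11. Acadm, a medium-chain acyl-CoA dehydrogenase gene, was at 365 to 530 CPM in Flox and 343 to 765 CPM in KO (log2 change 0.24, adjusted p = 0.668). In the lists of fatty acid synthesis (14 of 24 positive), cholesterol synthesis (15 of 25), bile acids (11 of 25) and lipid droplets (9 of 25), 0 genes were called and the medians were 0.03, 0.02, -0.04 and -0.03. The glucose list had 0 of 23 called and a median of -0.01, with G6pc at 70.1 to 342 CPM in Flox and 147 to 751 CPM in KO.

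The lists of the cell cycle, NRF2, interferon and extracellular matrix were among those whose medians moved with ARNT KO replicate 3. Of 34 cell cycle genes 33 were positive in 12 libraries (median 0.38) and 21 in 11 (median 0.06), and 0 were called in either. The median was -0.15 in the AHR line and 0.85 in the ARNT line, where it was 0.26 without ARNT KO replicate 3. For Mcm6, a replication helicase gene, ARNT KO had 16.7, 10.6 and 28.5 CPM and ARNT Flox 7.17 to 7.5 CPM, and the groups overlapped in the AHR line (log2 change 0.85, adjusted p = 0.514). Of 30 NRF2 targets 26 were positive in 12 libraries (median 0.16) and 9 in 11 (median -0.13), where Srxn1 was the 1 called. Of 33 interferon response genes 20 were negative in 12 libraries (median -0.05) and 30 in 11 (median -0.31), and Oasl1 was the 1 called, in 11 libraries. In 11 libraries the interferon median was 0.10 in the AHR line and -0.87 in the ARNT line, and 8 of 33 genes had the same sign, so the negative joint values came from the ARNT line. Of 29 extracellular matrix genes 23 were negative in 12 libraries (median -0.10) and 28 in 11 (median -0.34), with 0 called. Their median in 11 libraries was -0.34 in the AHR line and -0.39 in the ARNT line, with 26 genes of the same sign, against 9 in 12 libraries. In the other pathway lists (hepatocyte transcription factors, female- and male-biased genes, p53, acute phase, circadian clock, retinoids, pericentral and periportal genes) 0 genes were called in 12 libraries, and the medians ran from -0.03 to 0.18. The p53 list had 31 of 37 genes positive in 12 libraries (median 0.18) and 24 in 11 (median 0.05).

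**Figure D5:**
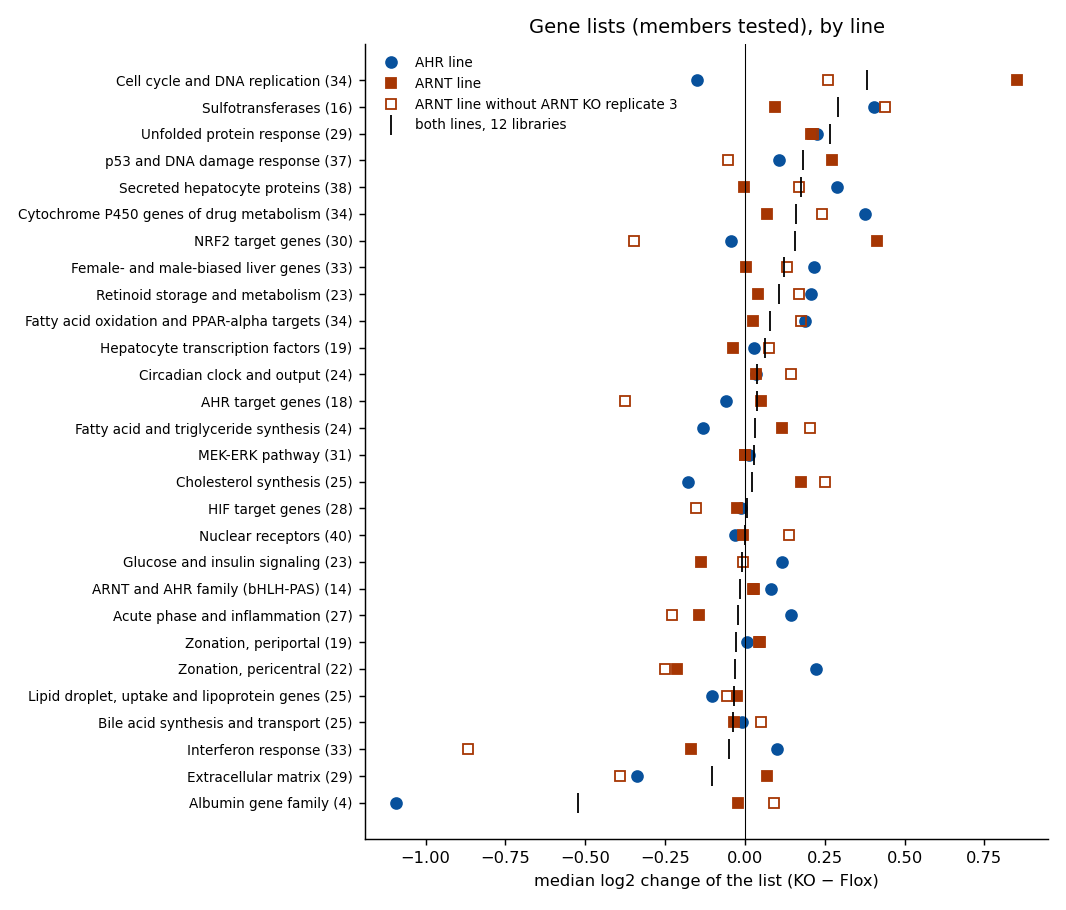
Median log2 change (x axis, KO minus Flox) of each pathway list, with the number of tested members in parentheses. Circles are the AHR line, filled squares the ARNT line, open squares the ARNT line without ARNT KO replicate 3, and black ticks the value over both lines. The cell cycle list is at 0.85 in the ARNT line (0.26 without ARNT KO replicate 3) and -0.15 in the AHR line, while the unfolded protein response has all 4 marks between 0.21 and 0.27.

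Cell type markers gave these ranges of summed CPM. Hepatocyte markers (12 genes, Alb among them) summed to 98868 to 126853 CPM in Flox and 33284 to 92649 CPM in KO. The lower sum does not describe the list as a whole. Of the 11 markers tested in 12 libraries, 9 had a positive log2 change over both lines and 2 a negative one. Their median was 0.07, and Alb was the lowest at -2.38. Kupffer cell and macrophage markers (19 genes) were at 631 to 1002 CPM in Flox and 675 to 1326 CPM in KO, and cholangiocyte markers (13 genes) at 234 to 295 and 213 to 494 CPM. In both lists the highest value was ARNT KO replicate 3. Stellate cell markers (15 genes) were at 341 to 542 CPM in Flox and 317 to 473 CPM in KO, endothelial markers (15 genes) at 427 to 564 and 382 to 534 CPM, and lymphocyte markers (21 genes) at 16.6 to 38.8 and 22.4 to 36.0 CPM. Apart from the hepatocyte list, which holds Alb, these ranges overlapped between Flox and KO with both lines pooled. Within the AHR line the lymphocyte markers did not overlap, at 16.6 to 24.8 CPM in AHR Flox and 29.6 to 34.8 CPM in AHR KO. In the ARNT line they overlapped, at 27.1 to 38.8 CPM in ARNT Flox and 22.4 to 36.0 CPM in ARNT KO. The ranges of the remaining lists given here overlapped within each line. Fewer cells of a type and less RNA per cell cannot be told apart in these samples, and the part of cell makeup in the results was not tested.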

How the data were processed

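Counts per gene symbol were deposited by the authors as 1 table of raw whole-number counts, 22537 symbols by 12 libraries. Per the labels' protocols, poly-A RNA was made into NEBNext Ultra II libraries; the submitters' processing notes name STAR 2.5.4b and 2.6.0c, DESeq2 1.20.0 and mm10. For the counting tool and its strand setting, nothing is given in the sources used here. edgeR 4.0.16 (R 4.3.3) was fitted as line plus deletion after filterByExpr (minimum count 10, minimum total 15), which kept 13968 genes with 99.98% of reads, and TMM scaling; the quasi-likelihood F test is two-sided, adjusted by Benjamini-Hochberg over all genes and called under 0.05. A group-means fit gave within-line changes and their difference. The biological coefficient of variation was 17.8%. No libraries were duplicates (chi-square per degree of freedom of at least 16.6 within groups). Scripts were tested on simulated data. Positions and promoters are from RefSeq GRCm38.p6 (98.8% of symbols matched).

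The members and lists were chosen with earlier results of these data known. The rule names Ahr and Arnt, genes called with non-overlapping groups and a mean of at least 1 CPM (in 11 libraries the 8 largest rises and falls), genes called in both lines, and the 3 members per list with the smallest p. Sult2a6 comes from that last part; A330049N07Rik, LOC624759, Nsun7, S100a13, Fkbp2, Antxr2, Ereg, Ank3, Krt79, Synj2, Samd4, Myh10, Tbc1d1, Arap2 and Afm were named after their values were seen. Alternatives were other scalings and filters, DESeq2 1.42.0, limma-voom 3.58.1, other model terms and leaving out each library.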

Additional observations from a re-analysis of the deposited data

Results flagged for a closer look

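The following genes changed by different amounts in the 2 lines, by the test of that difference (edgeR quasi-likelihood test, adjusted over all genes, ARNT line minus AHR line on the log2 scale). Arnt differed by -1.30 in 12 libraries (adjusted p = 0.0301) and by -1.18 in 11 (adjusted p = 0.00470). The rest differed in 11 libraries and did not pass in 12. Esr1, which rose in both lines, rose less in the ARNT line (-1.36, adjusted p = 0.00106). Alb differed by 3.22 (adjusted p = 0.000453) and its neighbour Afp by 2.32 (adjusted p = 0.0153), both lower in AHR KO. Sult2a4, at 11.3 to 27.5 CPM in AHR KO against 0.456 to 1.13 CPM in AHR Flox, differed by -4.25 (adjusted p = 0.0180). Cyp2d9 differed by 2.52 (adjusted p = 0.0462) and Cyp2c50 by 1.63 (adjusted p = 0.0254), both with the larger rise in the ARNT line. Cyp1a2 (-0.94, adjusted p = 0.0273) and Tuba8 (-2.06, adjusted p = 0.0259) fell further in the ARNT line.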

How the results depend on the processing

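Esr1 and Pebp1 kept their calls under all 23 alternatives, while Cox18 lost its call under 6 of 23, Sult2a6 under 4 and A330049N07Rik under 5. The number of genes called over both lines was 5 in the main analysis and 4 to 31 when each library was left out, the 31 being without ARNT KO replicate 3. It was 8 with no filter on low counts, 76 with DESeq2 (38 higher, 38 lower, 22 on chromosome 5), 3 with limma-voom, 12 with sample quality weights, 2 without the line term and 2 with the lines averaged. Alb, Gc, Cyp2d9 and Nr3c2, which edgeR called in neither set, passed with the DESeq2 Wald test in 12 libraries (adjusted p = 0.00465, 0.0482, 0.00927 and 0.0302). In 11 libraries the count of 31 became 357 with DESeq2, 2 without the line term, 98 with the lines averaged, and 8 to 47 when a further library was left out; these alternatives were chosen after seeing the data. With the replicate number as a block the count was 4 in 12 libraries and 5 in 11. The numbers do not pair the libraries: the residuals of KO and Flox libraries with the same number correlated at 0.0138, 0.0496 and 0.141 in the AHR line and at -0.0370, -0.00755 and -0.0123 in the ARNT line, and 2 of 6 KO libraries correlated best with their own number. Genes changed the same way in both lines numbered 1 to 3, and genes that differed between the lines 1 to 194, when each library was left out. The same-sign share was 46.7% with no filter and 46.6% to 53.2% when each library was left out, and the genes with non-overlapping groups numbered 230 to 564, more than the 176 because fewer libraries must be apart. Srxn1 reversed from 0.15 to -0.31 with limma-voom, -0.59 with quality weights, -0.34 with the replicate block and -0.79 without ARNT KO replicate 3 (-0.79 to 0.32 when each library was left out); the cause of these shifts was not tested. With 3 libraries a group and a floor of 3 counts, changes in genes below about 1 CPM, such as Nsun7, Ereg and Krt79, are the least precise.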

Other observations

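Some genes missed the threshold of the edgeR test in both sets although all 6 KO libraries lay on 1 side of the Flox libraries of their line; they are named after their values were seen. Mrps28, a mitochondrial ribosomal protein gene, was at 16.4 to 18.9 CPM in AHR Flox and 21.1 to 21.9 CPM in AHR KO, and at 14.1 to 14.9 CPM in ARNT Flox and 17.2 to 19.9 CPM in ARNT KO (log2 change 0.33 ± 0.06, edgeR adjusted p = 0.0991), and it passed with DESeq2 (adjusted p = 0.000507) and with limma-voom and quality weights (0.0410). Rplp0, a ribosomal stalk gene often used as a reference in quantitative PCR, lies on chromosome 5 and was at 308 to 342 CPM in AHR Flox and 184 to 287 CPM in AHR KO, and at 346 to 372 CPM in ARNT Flox and 181 to 234 CPM in ARNT KO (log2 change -0.62 ± 0.11, edgeR adjusted p = 0.121). Rplp0 passed with DESeq2 (adjusted p = 0.000132), with limma-voom and quality weights (0.0410) and, in edgeR, without AHR KO replicate 2 (-0.72, adjusted p = 0.00816). Rplp0 is a member of a gene family with many processed copies, so the assignment of its reads is uncertain.

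Of 24 genes of the circadian clock list 17 had the same sign in both lines in 12 libraries and 13 in 11 (49.7% of all genes in 12), 14 were positive and 10 negative in 12, and 0 were called. The 3 with the smallest p are given here. Bhlhe41, a clock repressor, was at 1.23 to 5.92 CPM in Flox and 0.421 to 2.03 CPM in KO (log2 change -1.33, adjusted p = 0.374), and Nr1d1, the Rev-erb alpha gene, at 74.1 to 147 and 37.5 to 84.6 CPM (-0.73, adjusted p = 0.502). Nfil3, which Nr1d1 represses, was at 11.7 to 16.9 CPM in Flox and 12.7 to 30.6 CPM in KO (0.49, adjusted p = 0.459). In each of these 3 genes the Flox and KO libraries overlapped when both lines are pooled. The labels give no hour of collection.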
